A study of Mus musculus with 6 samples.

Results

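The circadian clock genes examined here were Per1, Per2, Per3, Cry1, Cry2, Arntl, Clock, Dbp, Tef and Hlf. They were chosen by name, as the rows whose gene symbol equalled one of these 10, out of 18138 gene symbols on the array, and all 10 were found, with 16 probes. Of these, 12 probes of 8 genes were bright enough to be tested. Cry1 and Hlf, which no array showed above background, were not tested.

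The circadian clock is a feedback loop of transcription that runs in nearly every cell, the cardiomyocyte included. CLOCK and BMAL1, the product of Arntl, bind E-boxes and activate the Per and Cry genes, whose products return to the nucleus and repress them. The same activators drive Dbp, Tef and Hlf, which encode factors that bind D-boxes and pass the rhythm on to other genes. In the adult heart this loop sets daily rhythms of metabolism and electrical activity, and light, feeding and hormones can shift it.

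Total RNA was measured in hearts of male FVB mice (FVB/N in the methods) at postnatal day 6, from 3 hSRY-ON and 3 hSRY-OFF pups, on MouseRef-8 BeadChips, on which the fluorescence of a probe's beads reports how abundant its transcript was. The design asks which transcripts differ in the heart once human SRY is active. The hSRY-ON pups carried the Signalox-hSRY cassette in a single copy at the H11 locus of chromosome 11, from which Cre of the oocytes of Ddx4-Cre mothers had removed DsRed2, so that the CAG promoter, active in most tissues, drove FLAG-tagged human SRY with EGFP from the single-cell embryo onwards. They were selected not to carry Ddx4-Cre themselves. By the study's methods, hSRY-OFF mice carry the same cassette without recombination, while the accompanying account of the controls speaks of littermates with Ddx4-Cre only or with neither transgene, so the genotype of the control hearts is uncertain. The cassette is 1 integration in 1 line, the hSRY-ON pups grew slowly and lacked milk in the stomach at a later necropsy, and this array has no reading of human SRY itself. The light cycle and the time of day at which the hearts were taken are not given in the sources used here, so time of day and group cannot be told apart.

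Between 47.2% and 51.3% of the 25697 probes were above background on each array, and hSRY-OFF replicate 3 was the dimmest array (mean intensity 631, the others 723 to 939). The tissue label was checked against its markers: 7 of 8 cardiomyocyte genes were above background on all 6 arrays, and on the linear scale they summed to between 160358 and 171661 in the controls and between 149825 and 159040 after SRY activation, with 4 of the 8 lower and none higher in hSRY-ON. The 6 macrophage genes summed to between 2928 and 3897 in the controls and to between 6627 and 6988 in hSRY-ON, with 4 higher. Smooth muscle genes (4, of which Cnn1 was not above background) summed to 25435 to 30747 and 38628 to 42619, with 2 higher. These were Tagln and Acta2, which at a mean log2 of 14.74 in hSRY-OFF and 15.27 in hSRY-ON made up most of the sum. Myh11 went the other way, by -0.42 (SE 0.18, limma adjusted p = 0.114), with every hSRY-ON heart below the controls. Endothelial genes (5, of which Kdr was not above background) summed to 7412 to 8319 and 6077 to 7125, with 2 lower. Of 5 brown fat genes, summing to 1930 to 2671 and 1137 to 3688, Ucp1 differed most between hearts, at 4.64, 5.03 and 8.88 in hSRY-OFF and 10.81, 8.80 and 9.94 in hSRY-ON replicates 1 to 3 on the log2 scale. The list did not move together. Ucp1 (limma adjusted p = 0.0395) and Adipoq (1.48, limma adjusted p = 0.0265) were higher. Cidea, the brightest at baseline, changed by -1.05 (limma adjusted p = 0.0691), with every hSRY-ON heart below the controls. Cfd changed by 1.26 (limma adjusted p = 0.0818), and Fabp4 was not tested. Of 5 genes typical of liver, Alb, Serpina1a and Fgb were above background on no array, while Ttr was above background on the hSRY-ON arrays alone. The same held for the neuronal genes Snap25 and Th and the thymic genes Cd3e, Cd8a and Rag1 as for Alb. Other genes of these 2 lists were above background. The neuronal gene Stmn2 was so on all 6 arrays and was lower in hSRY-ON by 0.52 (SE 0.15, limma adjusted p = 0.0334). Tubb3, also neuronal, was above background on 1 hSRY-OFF and 2 hSRY-ON arrays. Of the thymic genes, Lck was above background on all 6 arrays and Ptcra on 2 of each group. The part of these other cells in the clock gene values was not tested.

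The promoter sequences available for 9 of the 10 genes (RefSeq, GRCm38.p6, 14 transcription starts) show which of these genes carry the loop's own binding letters close to a start. The gene without a sequence was Per2, which was therefore not searched. The 250 bases before each start were searched on both strands for the E-box CACGTG, held by 1978 of 32851 promoters (6.02%), the D-box TTATGTAA or TTACGTAA (306, 0.931%), the CRE TGACGTCA, the site of the cAMP-responsive factors (508, 1.55%), the SOX core AACAAT, the core letters that SRY and its relatives prefer (3096, 9.42%), and the palindrome of the glucocorticoid receptor, AGAACA and TGTTCT with 3 bases between them (3, 0.00913%). The motifs do not overlap in the stretches below, which are printed from 5′ to 3′ on the strand of the gene with the match in capitals. They are the only windows of the 9 searched genes with a match.
Per1, start 1, E-box, chr11:69098753-69098818, plus strand: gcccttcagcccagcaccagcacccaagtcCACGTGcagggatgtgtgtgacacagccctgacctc
Cry1, E-box, chr10:85185079-85185144, minus strand: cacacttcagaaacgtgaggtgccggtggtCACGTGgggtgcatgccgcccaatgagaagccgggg
Tef, start 1, E-box, chr15:81802516-81802581, plus strand: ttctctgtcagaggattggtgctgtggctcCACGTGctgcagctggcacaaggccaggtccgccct
Tef, start 2, E-box, chr15:81811246-81811311, plus strand: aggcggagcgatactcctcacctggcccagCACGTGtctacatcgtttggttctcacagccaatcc
Per3, D-box, chr4:151044786-151044900, minus strand: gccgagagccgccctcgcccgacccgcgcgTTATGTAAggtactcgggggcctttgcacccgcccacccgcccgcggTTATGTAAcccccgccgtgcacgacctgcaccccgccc
Hlf, CRE, chr11:90390918-90390956, minus strand: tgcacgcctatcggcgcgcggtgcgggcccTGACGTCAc

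The E-box lay 166 bases before the first start of Per1, 60 before that of Cry1, and 127 and 138 before the starts of Tef, and Per3 held 2 D-boxes, 205 and 158 bases before its start. No window of the second start of Per1 or of Arntl, Clock, Cry2 or Dbp held any of these letters, and none of the 9 genes held the SOX core or the glucocorticoid palindrome here. A match is a string of letters in a window, and its absence says nothing of elements elsewhere.

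Among the clock genes, 2 of the 8 tested, Per1 and Per2, were differentially expressed, both higher in hSRY-ON hearts, and none was lower. Differential expression here means a Benjamini-Hochberg adjusted p-value under 0.05 in limma's moderated test over all 12970 tested probes, and each gene is read from its brightest probe. By that rule 27.5% of the tested probes and 28.8% of the 9660 tested genes were differentially expressed. Of all tested genes, 14.9% were higher and 13.9% lower in hSRY-ON. The share differentially expressed among the clock genes was thus near that of all genes. At an increase of at least 1 on the log2 scale, a threshold chosen after the values were seen, the background was 5.28% (510 genes), and Per1 and Per2 both passed it. The hearts of the groups did not overlap in 2 of the 8 clock genes, again Per1 and Per2, and in 46.8% of all tested genes. The median log2 change was 0.12 over the 8 clock genes and 0 over all tested genes. Values below are background-corrected, normalized log2 intensities, given for replicates 1, 2 and 3 of each group, and every change is hSRY-ON minus hSRY-OFF. They compare hearts within a probe, since the brightness of different probes cannot be set against each other.

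**Figure D1:**
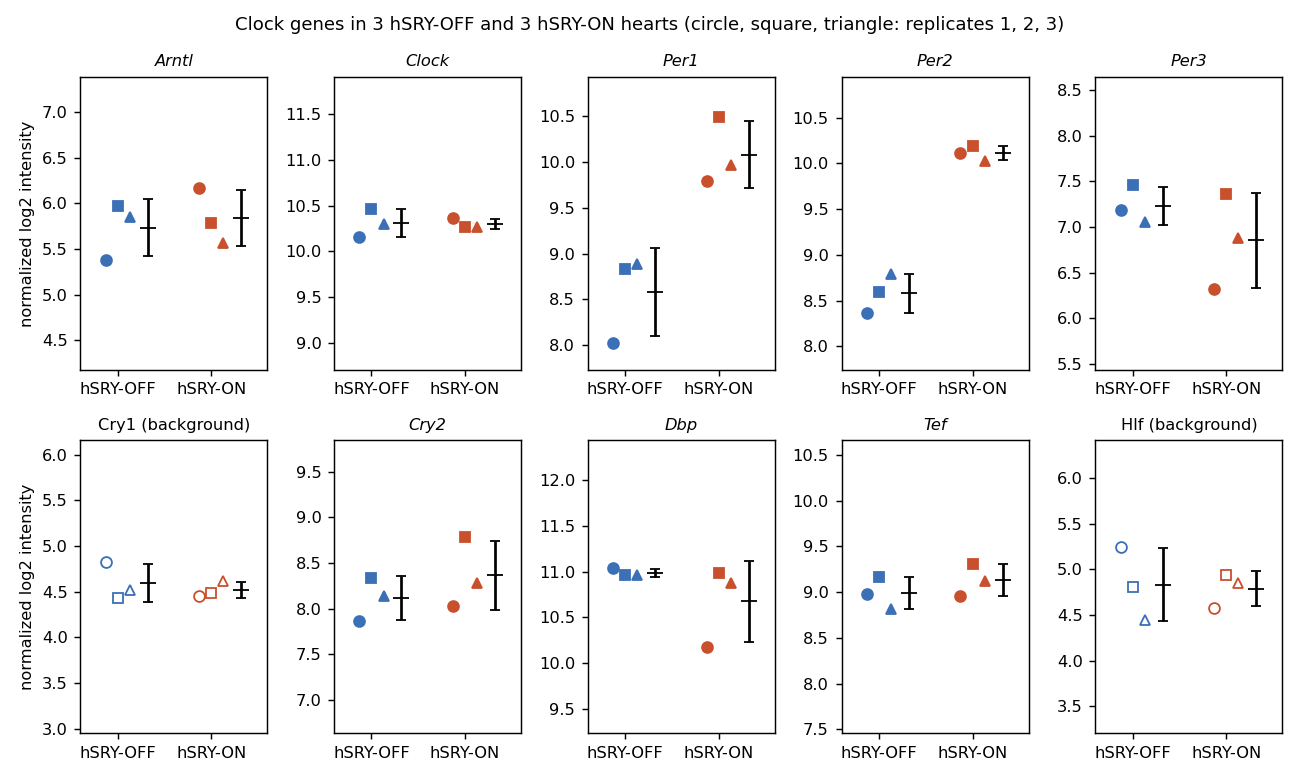
Normalized log2 intensity of the 10 clock genes (brightest probe) in 3 hSRY-OFF and 3 hSRY-ON hearts, with each heart as a point and the mean with its SD as a bar beside the points. Every panel spans the same log2 range, and open symbols mark Cry1 and Hlf, which were not above background. The groups lie apart in Per1 and Per2 and overlap in the other 6 tested genes.

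Neither activator passed the threshold. Clock, which encodes the partner with which BMAL1 binds DNA, was at 10.16, 10.46 and 10.30 in hSRY-OFF and at 10.36, 10.27 and 10.27 in hSRY-ON hearts. The hSRY-ON hearts all lay inside the range of the controls. The change was -0.01 (SE 0.12, limma adjusted p = 0.965), with a 95% interval from -0.30 to 0.28. A second, dimmer Clock probe gave -0.10 (SE 0.23, limma adjusted p = 0.771), and the third was not above background on any array. Arntl, the gene of BMAL1, was dim, above background on 2 hSRY-OFF and 3 hSRY-ON arrays. It stood at 5.38, 5.97 and 5.85 in hSRY-OFF and 6.17, 5.78 and 5.56 in hSRY-ON hearts, so that the groups overlapped and hSRY-ON replicate 1 was the highest heart. Its change was 0.10 (SE 0.21, limma adjusted p = 0.756), and the 95% interval from -0.39 to 0.60 leaves room for a moderate change in either direction.

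The repressors split, with Per1 and Per2 higher and Per3 and Cry2 not. Per1, the period gene known to respond within an hour to hormones and other acute stimuli, was at 8.02, 8.83 and 8.88 in hSRY-OFF and at 9.79, 10.49 and 9.97 in hSRY-ON hearts. All 3 hSRY-ON hearts were above all controls, and hSRY-OFF replicate 1 was the lowest. The mean rose from 8.58 ± 0.48 to 10.08 ± 0.36 (SD, n = 3 each), a change of 1.51 (SE 0.27, limma adjusted p = 0.00636) or 2.84-fold, with a 95% interval from 1.83-fold to 4.42-fold. The deposited intensities, before any normalization, were 449, 720 and 470 against 941, 1570 and 1080. A second Per1 probe, at 7.10, 7.88 and 8.31 against 9.07, 9.67 and 9.28, rose by 1.58 (SE 0.30, limma adjusted p = 0.00811). In RNA of a whole heart, more cells of a type and more RNA per cell cannot be told apart. Per1 lies at chr11:69095108-69109965 of GRCm38.p6, on the chromosome that also carries the transgene.

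Per2, the partner of Per1 whose loss weakens the clock strongly in mice, lies at chr1:91415977-91459351 and was the clock gene with the tightest hSRY-ON values after Clock. It stood at 8.36, 8.59 and 8.79 in hSRY-OFF and 10.12, 10.19 and 10.03 in hSRY-ON hearts. The highest control lay more than 1 log2 unit below the lowest hSRY-ON heart. The mean rose from 8.58 ± 0.21 to 10.11 ± 0.08 (SD, n = 3 each), a change of 1.53 (SE 0.14, limma adjusted p = 0.000493) or 2.89-fold, with a 95% interval from 2.30-fold to 3.64-fold. The intensities as deposited were 531, 636 and 448 against 1150, 1290 and 1120. A second probe, at 8.02, 8.60 and 8.37 against 9.59, 9.80 and 9.81, rose by 1.41 (SE 0.17, limma adjusted p = 0.00126). The third Per2 probe was above background on no hSRY-OFF and 2 hSRY-ON arrays and was not tested.

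Per3, which is dispensable for the central rhythm, was at 7.19, 7.46 and 7.05 in hSRY-OFF and 6.32, 7.36 and 6.88 in hSRY-ON hearts. The groups overlapped, with hSRY-ON replicate 1 lowest. Its change was -0.38 (SE 0.26, limma adjusted p = 0.308), with a 95% interval from -0.98 to 0.22, and it was -0.12 without hSRY-ON replicate 1 and -0.63 without hSRY-ON replicate 2. Cry2, a cryptochrome that represses CLOCK and BMAL1 together with the PER proteins, stood at 7.87, 8.34 and 8.14 against 8.03, 8.78 and 8.28. Here too the groups overlapped, and the change of 0.25 (SE 0.21, limma adjusted p = 0.427) had a 95% interval from -0.25 to 0.75. Cry1, the other cryptochrome, gave intensities of 127 to 167 that could not be told from the negative-control beads, so its level has only an upper bound in both groups.

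The output factors showed no difference past the threshold either. Dbp, a direct target of CLOCK and BMAL1 whose transcript cycles strongly in most tissues, was at 11.04, 10.96 and 10.96 in hSRY-OFF hearts and at 10.17, 10.98 and 10.87 in hSRY-ON hearts. The controls were close together (SD 0.05), hSRY-ON replicate 1 was lower than every other heart, and hSRY-ON replicate 2 lay among the controls. The change was -0.31 (SE 0.21, limma adjusted p = 0.314; 95% interval from -0.81 to 0.18), and without hSRY-ON replicate 1 it was -0.06. Tef, which encodes a related factor, stood at 8.98, 9.17 and 8.82 against 8.96, 9.31 and 9.12, and the groups overlapped. It changed by 0.14 (SE 0.15, limma adjusted p = 0.523; 95% interval from -0.21 to 0.48). A second, dimmer Tef probe pointed the other way, at -0.26 (SE 0.19, limma adjusted p = 0.342), so that the direction of Tef is not settled by its probes. Hlf, the third of these factors, gave 123 to 184 and was not above background on any array.

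**Figure D2:**
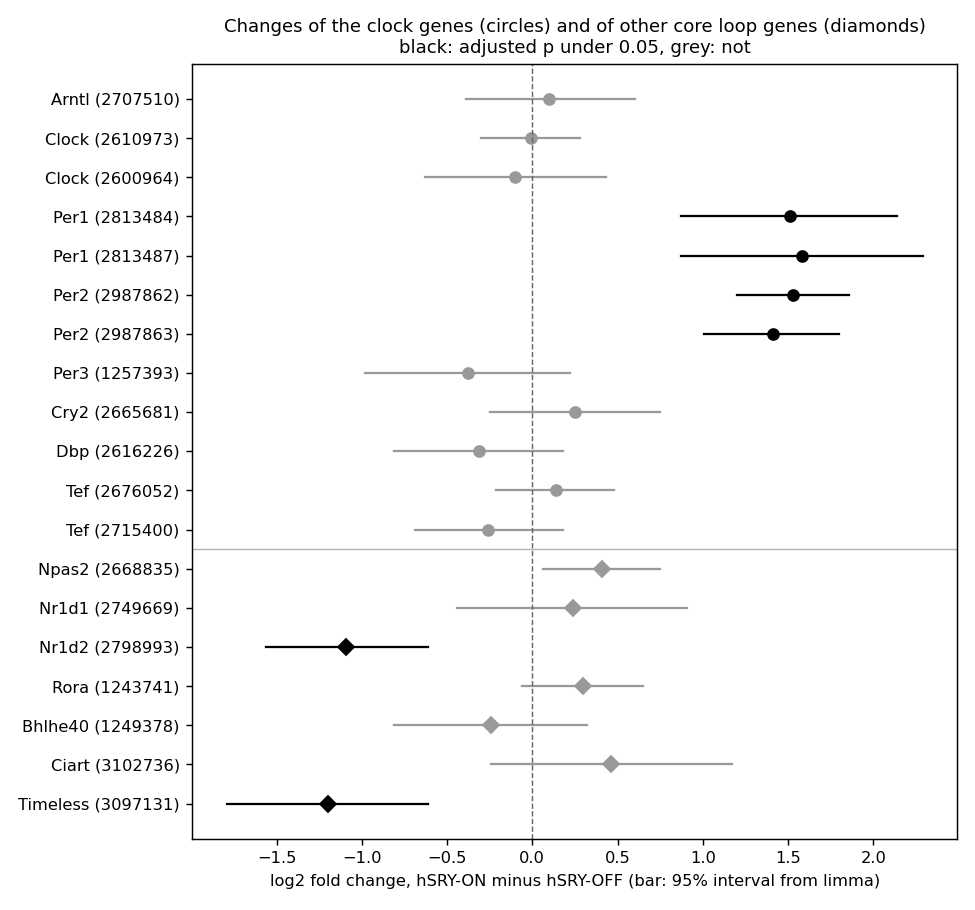
Log2 fold change (hSRY-ON minus hSRY-OFF, horizontal axis) of each tested probe of the clock genes (circles) and of the brightest probe of the other genes of the core loop reported here (diamonds), with 95% intervals from limma and the probe number beside each gene. Both probes of Per1 and of Per2 lie between 1.41 and 1.58, and the intervals of the other clock gene probes include 0.

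Set side by side by role, the mean deviation of the 2 activators from the hSRY-OFF mean was 0.24, 0.00 and -0.11 in hSRY-ON replicates 1, 2 and 3. For the 4 tested repressors it was 0.44, 1.08 and 0.66, above the hSRY-OFF hearts at -0.27, 0.18 and 0.09. For the 2 tested output factors it was -0.42, 0.16 and 0.00. Only the repressor mean was apart from its controls in every hSRY-ON heart, and that came from Per1 and Per2, since Per3 and Cry2 overlapped. Both genes that rose were repressors, and so were 2 tested genes that did not pass the threshold.

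The difference between the period genes themselves was compared within each array. The change of Per1 exceeded that of Per3 by 1.89 (SE 0.31) on the log2 scale and that of Cry2 by 1.26 (SE 0.17). Per2 exceeded Per3 by 1.91 (SE 0.34) and Cry2 by 1.28 (SE 0.23). Against Clock, Arntl, Dbp and Tef, Per1 was ahead by 1.37 to 1.82 and Per2 by 1.39 to 1.84. In each of these 12 comparisons the hSRY-ON and hSRY-OFF arrays did not overlap, and the exact two-sided permutation p was 0.1, the smallest that 3 hearts against 3 allow, or 0.108 after adjustment over the 13 pairs compared, so none could reach 0.05. The pairs were chosen after the values were seen. Per1 and Per2 differed from each other by -0.03 (SE 0.25; exact permutation p = 1), with Per2 the steadier of the pair.

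**Figure D3:**
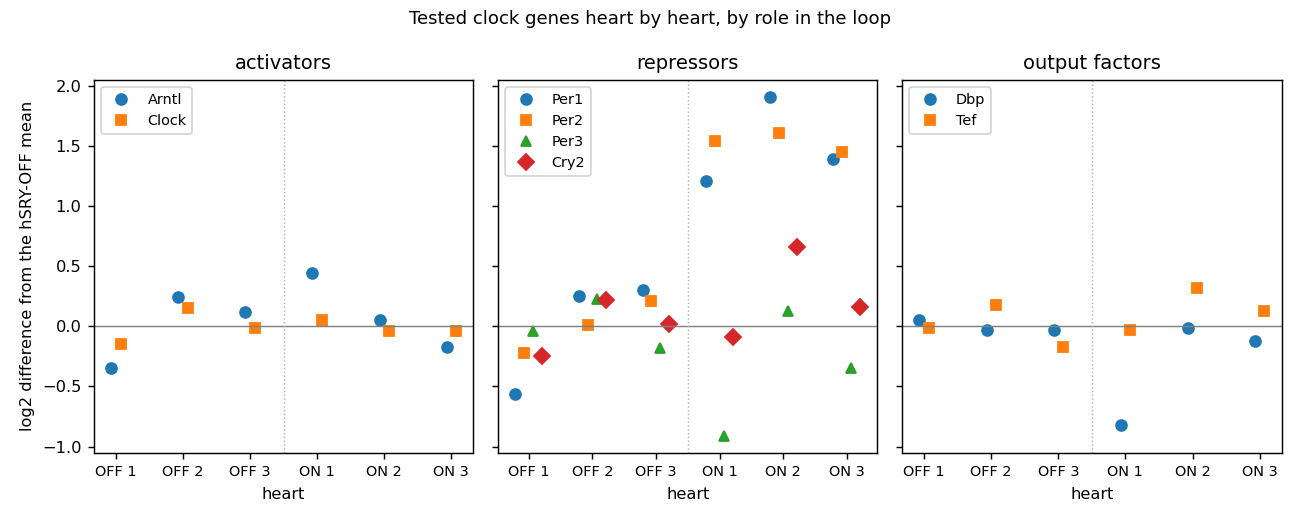
Log2 difference of each tested clock gene from its hSRY-OFF mean (vertical axis) in each of the 6 hearts (horizontal axis), in panels of activators, repressors and output factors. Per1 and Per2 lie between 1.21 and 1.91 in the hSRY-ON hearts, while Per3 and Dbp are lowest in hSRY-ON replicate 1.

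The order of the hSRY-ON hearts was then compared between the clock genes, an order picked after the values were seen and set beside all genes as a description only. In 5 of the 8 (Per1, Per3, Cry2, Dbp and Tef) hSRY-ON replicate 1 was the lowest and replicate 2 the highest of the 3, whereas 16.7% of all tested genes (1615) had that order. Arntl ran otherwise, highest in replicate 1 and lowest in replicate 3, and Per2 was lowest in replicate 3 and highest in replicate 2. Clock too was highest in replicate 1, with replicates 2 and 3 both at 10.27. Ucp1 had the reverse of the first order, as did the brown fat genes Cidea and Adipoq. Cfd, of the same list, did not, at 7.58, 6.61 and 5.68, and Fabp4 was above background on no hSRY-ON array. How many of all tested genes had the reverse order was not counted, and the part of brown fat was not tested. The SD among hSRY-ON hearts was 9.09 times that among hSRY-OFF hearts for Dbp and 2.49 times for Per3, but the median ratio over the 8 clock genes, 0.996, was close to the 1.03 of all tested genes. Among genes known for daily rhythms, Kcnip2, a subunit of the channel of the transient outward current, and Usp2, a deubiquitinase, had ratios of 10.1 and 2.62 and the same order; these were picked after the values were seen.

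The tested genes whose profile over the 6 hearts, centred on its mean, came nearest to Per1 by root mean square difference were Nfkbiz (0.138 log2 units), which encodes a nuclear regulator of NF-kappaB, Slitrk5 (0.208) and Sgk1 (0.211), a kinase gene that glucocorticoids induce. Nfkbiz stood at 7.77, 8.77 and 8.59 in hSRY-OFF and 9.53, 9.96 and 9.62 in hSRY-ON hearts, low in hSRY-OFF replicate 1 as Per1 was. Slitrk5 was above background on the hSRY-ON arrays only. For Dbp the nearest were A930008G19Rik (0.085), Gimap6 (0.086) and the Notch ligand gene Dll1 (0.095), and for Arntl they were Magel2 (0.076), Hps1 (0.079) and Zcchc18 (0.09). Magel2 and Hps1 were above background on 3 of the 6 arrays each, so those likenesses rest on dim values. All are descriptions over 6 hearts.

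No gene of the wider loop rose past the threshold as Per1 and Per2 did. Of 12 other core loop genes, 11 were on the array and 8 were tested, with none higher and 2 lower, against 14.9% and 13.9% of all tested genes, and a median change of 0. The groups did not overlap in 4 of the 8, against 46.8% of all tested genes. Nr1d2 (Rev-erb beta), a nuclear receptor that represses Arntl, was at 6.66, 6.80 and 6.43 in hSRY-OFF and 5.96, 5.24 and 5.43 in hSRY-ON hearts. The groups did not overlap, and 1 of the hSRY-ON arrays was not above background. Nr1d2 fell by 1.09 (SE 0.20, limma adjusted p = 0.00722), and by 0.37 where no background was corrected. Timeless, a relative of the fly clock gene known in mammals mainly for its work at replication forks, was at 7.98, 8.10 and 7.92 against 6.22, 6.88 and 7.31. It fell by 1.20 (SE 0.25, limma adjusted p = 0.0116), and by 0.65 without background correction, with every hSRY-ON heart below the controls. Nr1d2 and Timeless each had a second probe that was above background on no array and was not tested.

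The other tested genes of the loop that are reported here had changes from -0.24 to 0.46. Npas2, Rora, Nr1d1 and Ciart were named after their values were seen. Npas2, which can stand in for Clock, changed by 0.41 (limma adjusted p = 0.0796) and Rora by 0.30 (limma adjusted p = 0.188). In both, every hSRY-ON heart lay above the controls, by 0.04 log2 units. Nr1d1 (Rev-erb alpha), the main repressor of Arntl, changed by 0.24 (SE 0.29, limma adjusted p = 0.582). Ciart, a repressor listed as Gm129, changed by 0.46 (limma adjusted p = 0.292), and by 0.81 (limma adjusted p = 0.0441) without hSRY-ON replicate 1.

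Of 15 genes for proteins that modify the clock proteins, 9 were tested, of which 3 were higher and none lower, against 14.9% and 13.9% of all tested genes, with a median of 0.01. The count ranged from 2 to 4 over the other settings. Btrc, the F-box protein that marks PER for degradation, was at 8.98, 8.92 and 9.07 in hSRY-OFF and 9.90, 10.15 and 9.85 in hSRY-ON hearts, a rise of 0.98 (SE 0.13, limma adjusted p = 0.00174). Csnk1d and Csnk1e encode the kinases that phosphorylate PER. Csnk1d rose by 0.81 (SE 0.14, limma adjusted p = 0.00518), with its groups apart, but the call was lost without normalization between arrays, at 0.71 (limma adjusted p = 0.101), and 1 of its 5 probes stood at -0.09. Csnk1e changed by 0.42 (SE 0.12, limma adjusted p = 0.0384), a call lost without normalization between arrays (0.31), with the replicate block (0.42, limma adjusted p = 0.0653) and on leaving out any 1 of 5 hearts, namely all but hSRY-ON replicate 3 (0.35 to 0.45).

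Among 14 genes known for daily rhythms in heart or other tissues, 9 were tested, with none higher and 3 lower, against 14.9% and 13.9% of all tested genes, and a median of 0.09. The count depended on the setting and was 5 in 7 of the 12 processing alternatives, where Usp2, at -0.72 (limma adjusted p = 0.0542), and the brightest probe of Tsc22d3, at 0.73, came under the threshold too. Usp2 was called lower in 9 of the 12 and Tsc22d3 higher in 8 of the 12. Alas1, the first enzyme of heme synthesis, was at 13.30, 13.30 and 12.90 in hSRY-OFF and 11.69, 11.57 and 11.89 in hSRY-ON hearts. Its groups lay more than 1 log2 unit apart, and it fell by 1.45 (SE 0.16, limma adjusted p = 0.000857). Pdk4, the kinase that holds back glucose oxidation, fell by 1.32 (SE 0.23, limma adjusted p = 0.0055). Ucp3, a mitochondrial carrier gene, fell by 1.26 (SE 0.24, limma adjusted p = 0.00817), and by 0.64 without background correction. Klf15, a cardiac regulator driven by the clock and by glucocorticoids, was above background on 1 hSRY-OFF array only and was not tested.

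Genes that glucocorticoids induce were set beside the clock because that hormone raises Per1 in many tissues. Of 10 listed, 8 were tested, with 4 higher and none lower, against 14.9% and 13.9% of all tested genes, and a median of 0.92. Fkbp5, the chaperone partner of the receptor, was at 7.11, 7.35 and 6.66 in hSRY-OFF and 9.14, 9.79 and 8.60 in hSRY-ON hearts, a rise of 2.14 (SE 0.31, limma adjusted p = 0.00244). The groups lay more than 1 log2 unit apart. Sgk1 rose by 1.21 (SE 0.18, limma adjusted p = 0.00274), and the metallothionein genes Mt2 and Mt1, which metals and stress also induce, by 1.71 (SE 0.34, limma adjusted p = 0.0091; 0.73 without background correction) and 1.11 (SE 0.14, limma adjusted p = 0.00159). Not every gene of the list did so. Klf9, a factor that both the clock and glucocorticoids drive, was at 9.93, 10.55 and 10.38 against 10.70, 11.44 and 10.35, which overlapped, and it changed by 0.54 (SE 0.29, limma adjusted p = 0.203). The brightest probe of Tsc22d3, which encodes GILZ, changed by 0.73 (SE 0.24, limma adjusted p = 0.0597), while its other probe rose by 2.12 (SE 0.41, limma adjusted p = 0.00793). Dusp1 and Errfi1 were at -0.17 and -0.19.

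**Figure D4:**
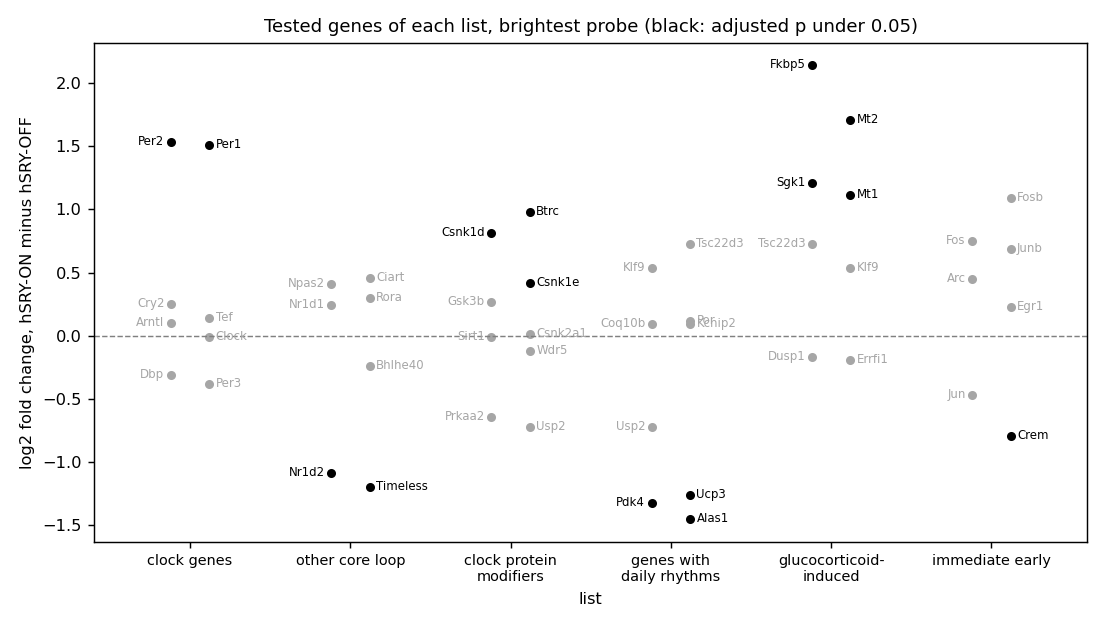
Log2 fold change (vertical axis, hSRY-ON minus hSRY-OFF) of the tested genes of the clock and of each related list (horizontal axis; 1 tested gene of the core loop is not shown), brightest probe, 1 point a gene, black where the limma adjusted p was under 0.05. Per1 and Per2 stand above all genes of the core loop, and Fkbp5 and Mt2 are the only points higher than them.

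Of 9 immediate early genes and targets of the cAMP-responsive factor CREB, which also acts on Per1, 7 were tested, with none higher and 1 lower, against 14.9% and 13.9% of all tested genes, and a median of 0.45. The count was 2 without normalization between arrays and without hSRY-ON replicate 2 or 3, and 3 with array weights or the replicate block. The 1 lower gene was Crem, which encodes factors of that pathway and fell by 0.79 (SE 0.14, limma adjusted p = 0.00624). A second Crem probe fell by 0.83 (SE 0.19, limma adjusted p = 0.0158), a call lost without hSRY-OFF replicate 2 or hSRY-ON replicate 1. Another tested probe changed by -0.32 (SE 0.23, limma adjusted p = 0.328). The other 6 tested genes were not past the threshold, at -0.47 for Jun, 0.23 for Egr1, 0.45 for Arc, 0.69 for Junb, 0.75 for Fos and 1.09 for Fosb. With the replicate block, Fos (limma adjusted p = 0.028) and Fosb (limma adjusted p = 0.0297) passed it, and with array weights Junb (0.90, limma adjusted p = 0.0406) and Arc (0.47, limma adjusted p = 0.0325) did.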

How the data were processed

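Total RNA of 6 hearts was hybridized to 1 array each. The authors deposited intensities, the mean over the beads of each probe without normalization, together with a detection p-value that sets each against the array's negative-control beads. The methods name TCC for normalization, without settings, and the labels' processing notes name limma; neither step is in the deposited values. Groups and replicate numbers came from the sample titles.

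In R 4.3.3 with limma 3.58.1, the background was corrected by the normal-exponential model with controls inferred from the detection p-values, an offset of 16 was added, and the arrays were quantile normalized and put on the log2 scale (the steps of neqc). Tested probes were those with a detection p-value below 0.05 on 3 or more of the 6 arrays. The fit used lmFit and eBayes without covariates, and two-sided p-values were adjusted by the Benjamini-Hochberg method over all 12970 tested probes. A gene was read from its brightest tested probe. The hearts were biological triplicates, so the p-values set each group difference against the spread between hearts within groups. That spread was moderated by limma with the other tested probes, and 3 arrays a group limit the precision. Promoter sequences came from RefSeq. The fit was tested on simulated data with known changes. It called 53 of 95 changes of 1 log2 unit in the right direction (55.8%) and 89 of 105 changes of 2 (84.8%). It also called 6 unchanged probes. A gene that did not pass the threshold is therefore not shown to be unchanged. Python 3.11.15 and matplotlib 3.10.9 drew the figures.

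The clock genes, the related lists and the marker lists were chosen with earlier results of these data known. Named were every clock gene with every probe, the differentially expressed genes of the other core loop list, up to 4 differentially expressed genes of each further list, Klf9, Klf15 and Tsc22d3, and the 3 genes nearest in profile to Per1, Dbp and Arntl. Genes outside this rule are said to be so or are given with values only. Some genes of the lists, which count in their totals, are not reported here by name. Bhlhe40, Bhlhe41 and Ciart were matched under the older symbols Bhlhb2, Bhlhb3 and Gm129. The alternatives were no background correction, an offset of 50, no probe filter, no normalization between arrays, scaling to the median or to unchanged probes as TCC does, stricter filters (all 6 arrays, or 0.01 as the detection limit), limma's trend and robust options, array weights, the replicate number as a block, every tested probe of a gene, and leaving out each heart.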

Additional observations from a re-analysis of the deposited data

How the results depend on the processing

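Per1 and Per2 were the only differentially expressed clock genes, with both tested probes of each, under all 12 processing alternatives and on leaving out each of the 6 hearts. The change of the brightest Per1 probe lay between 1.23 and 1.72 over the processing alternatives and between 1.23 and 1.66 on leaving out a heart, with limma adjusted p from 8.55e-05 to 0.0201 over both. For Per2 these ranges were 1.26 to 1.65 and 1.43 to 1.63, with limma adjusted p from 1.13e-05 to 0.00519. Over all genes, 3567 probes were differentially expressed, against 1897 without normalization between arrays, where 38.5% of them were higher in hSRY-ON in place of 50.1% and the median change of all tested probes was -0.12. Leaving out a heart gave 2206 probes (without hSRY-OFF replicate 1) to 3669 (without hSRY-OFF replicate 3), with 2255 without hSRY-ON replicate 1; fewer hearts were then fitted. The count of other core loop genes was 1 in place of 2 with probes detected on all 6 arrays, since Nr1d2 was then not tested, and 3 in 6 settings: no normalization between arrays, array weights, the replicate block, and without hSRY-OFF replicate 3, hSRY-ON replicate 1 or hSRY-ON replicate 2. With the replicate block, 2 clock genes, 3 other core loop genes and 2842 probes were differentially expressed. The replicate numbers name the hearts only, and deviations of hearts with the same number correlated at -0.02, 0.04 and -0.07. Cry1, Hlf and Klf15 were limited by signal over background. The control genotype and the time of day of sampling limit what the group difference stands for.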
